A study of Mus musculus with 14 samples.

Results

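The Slc25 family consists mostly of carrier proteins of the inner mitochondrial membrane, which exchange nucleotides, phosphate, amino acids, acylcarnitines, carboxylates and cofactors between the cytosol and the mitochondrial matrix. In skeletal muscle, Slc25a4 exports the ATP made by oxidative phosphorylation in exchange for ADP, Slc25a3 imports phosphate for its synthesis, Slc25a20 brings fatty acids in as acylcarnitines, and Slc25a11 and Slc25a12 carry the malate-aspartate shuttle that passes cytosolic reducing equivalents to the matrix. The family was taken as every gene whose symbol is Slc25a followed by a number, which gave 47 of the 52550 genes counted. The pseudogene Slc25a5-ps was left out by this rule, as were relatives named otherwise, such as the uncoupling proteins.

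Gene counts came from the triceps of 14 male mice. The FLExDUX4 line, a mouse model of facioscapulohumeral muscular dystrophy, holds human DUX4 as a conditional transgene, and the WT mice were littermates. There were 3 WT controls and 3 FLExDUX4 controls without running, and 4 WT runners and 4 FLExDUX4 runners that had a running wheel for 6 weeks. Neither a Cre allele nor the age of the mice is given in the labels, and the transgene itself was not analysed here. By the series title, the study asked whether aerobic exercise improves the deficits of the model. Each library was a 3′-end library of a single mouse, in which a transcript gives tags near its 3′ end whatever its length. Levels were therefore compared between genes without dividing by length. Reads were counted per gene, so the isoforms of a gene were counted together.

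The libraries held 3269357 to 6995811 gene counts (lowest in WT control 3, highest in FLExDUX4 control 3). Levels are given as CPM, the counts divided by the scaled library size and put on a common scale. All 8 skeletal muscle fibre markers were detected in every group. FLExDUX4 control 1 stood apart on the second principal component (loading 0.895, with the other 13 libraries between -0.324 and 0.0495), which carried 10.9% of the variance. The summed level of 10 slow fibre markers was 39.1 to 58.1 CPM in WT controls, 90.4 to 718 CPM in WT runners, 187 to 501 CPM in FLExDUX4 controls and 52.0 to 946 CPM in FLExDUX4 runners. FLExDUX4 running 4 had the 52.0 CPM, within the range of the WT controls. In whole muscle, fewer cells of a type and less RNA per cell cannot be told apart.

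Running was accompanied by higher transcripts of Slc25a34 and Slc25a20, and the promoters of these 2 genes are shown because they carry the only differences that passed the test. Each sequence holds the 250 bases before and the 50 bases after the start of the RefSeq transcript, in the direction of transcription. That of Slc25a34 lies at chr4:141623785-141624084 on the minus strand of GRCm38.p6, and that of Slc25a20 at chr9:108661886-108662185 on the plus strand. Capitals mark a match to AAGGTCA, the core element bound by nuclear receptors such as the oestrogen-related receptors, here read on the opposite strand.
Slc25a34: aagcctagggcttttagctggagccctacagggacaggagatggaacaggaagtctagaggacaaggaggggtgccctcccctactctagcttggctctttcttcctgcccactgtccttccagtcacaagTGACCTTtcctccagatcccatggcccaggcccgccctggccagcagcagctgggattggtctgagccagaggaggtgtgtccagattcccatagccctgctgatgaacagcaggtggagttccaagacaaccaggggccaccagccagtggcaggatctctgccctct
Slc25a20: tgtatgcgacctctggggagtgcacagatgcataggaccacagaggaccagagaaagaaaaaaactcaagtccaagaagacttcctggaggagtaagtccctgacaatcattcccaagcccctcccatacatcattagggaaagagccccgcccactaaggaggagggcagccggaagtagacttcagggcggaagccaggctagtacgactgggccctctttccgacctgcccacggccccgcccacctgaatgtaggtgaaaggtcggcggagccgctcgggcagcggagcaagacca
The match in Slc25a34 starts 119 bases before the transcript start, and the Slc25a20 window holds none. AAGGTCA, searched on both strands, was present in 1550 of 32851 promoters of this length (4.72%) and in 1 of the 46 promoters that belong to 36 family members. TGACGTCA, the cyclic AMP response element, was present in 588 promoters (1.79%), among them those of Slc25a25 and Slc25a36. GCGCATGCGC, the palindrome bound by NRF1, was present in 319 promoters (0.971%) and in none of the family.

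The levels of the family spanned several orders of magnitude, and Slc25a4 alone made up most of its transcripts. The family summed to 4376 ± 216 CPM in WT controls, 4893 ± 437 in WT runners, 4258 ± 139 in FLExDUX4 controls and 4687 ± 336 in FLExDUX4 runners (SD, n = 3 or 4). Slc25a4, the muscle and heart ADP/ATP exchanger, held 68.5% ± 0.43 of that sum in WT controls, 63.9% ± 3.69 in WT runners, 66.0% ± 0.0991 in FLExDUX4 controls and 65.2% ± 2.29 in FLExDUX4 runners. The 5 highest members were Slc25a4 (mean 3009 CPM over the 14 mice), the phosphate carrier Slc25a3 (808 CPM), the aspartate-glutamate carrier Slc25a12 (189 CPM), the oxoglutarate-malate carrier Slc25a11 (141 CPM) and the carnitine-acylcarnitine carrier Slc25a20 (48.3 CPM). Slc25a4 at 2714 to 3545 CPM and Slc25a3 at 636 to 1087 CPM did not overlap in any mouse. Slc25a12 at 163 to 215 CPM overlapped Slc25a11 at 103 to 197 CPM, and Slc25a20 at 27.4 to 77.7 CPM overlapped the next in the order, the NAD carrier Slc25a51 (39.4 to 61.1 CPM).

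Of the 47 members, 36 passed the filter on low counts and were tested. Those not tested were Slc25a14 (70 counts in all 14 libraries together), Slc25a45 (68 counts), Slc25a30 (10 counts), Slc25a2 and Slc25a21 (7 counts each), and Slc25a41 and Slc25a43 (2 counts each). Slc25a18, Slc25a31, Slc25a48 and Slc25a54 had a count of 0 in every library, which allows up to 3 counts per library. Among these, Slc25a31 is known as the ADP/ATP exchanger of the testis and Slc25a18 as a glutamate carrier of the brain.

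**Figure D1:**
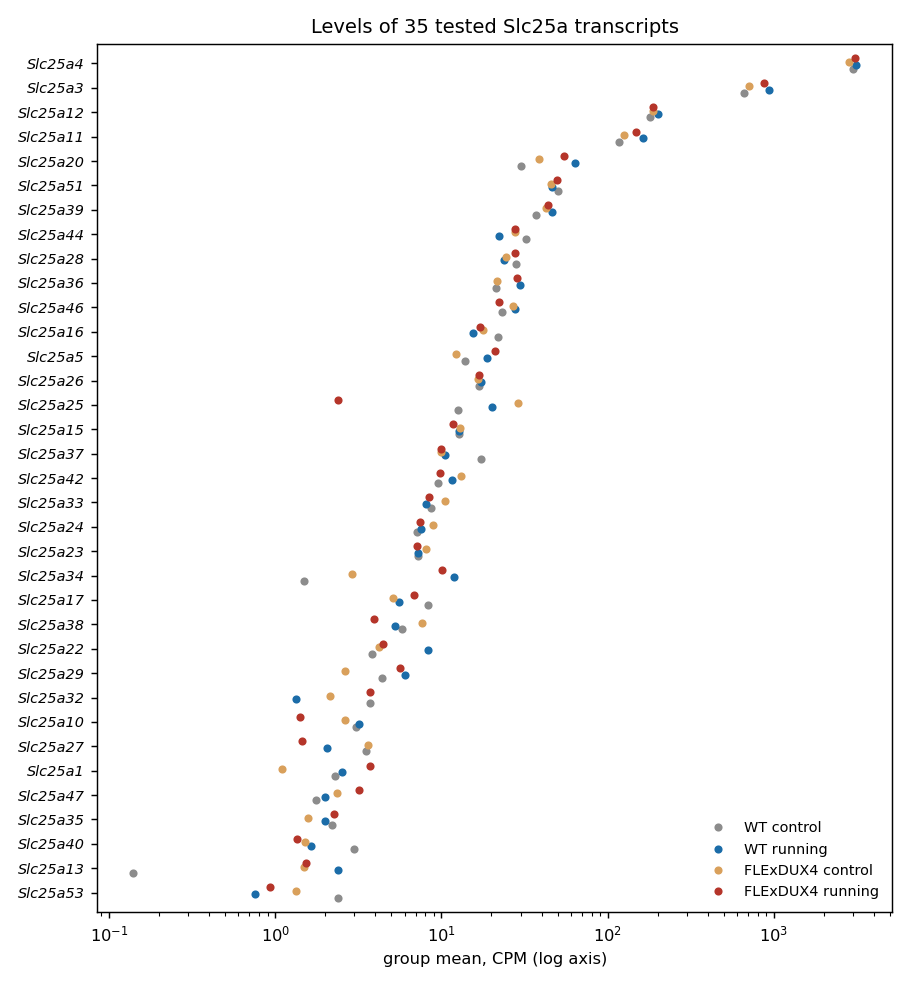
Mean level of 35 tested members in each group, as CPM on a log axis, ordered by the mean over the 14 mice. Slc25a4 (3009 CPM) stands above Slc25a3 (808 CPM), and the 4 group means lie furthest apart for low members such as Slc25a13 and for Slc25a25 and Slc25a34.

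Slc25a34 rose with running in WT triceps. This carrier has no settled substrate. Its levels in the WT controls were 0.841, 1.51 and 2.11 CPM (4, 7 and 7 counts), and in the WT runners 18.8, 11, 3.86 and 13.8 CPM (95, 62, 19 and 78 counts). All 4 runners were above all 3 controls. The difference was 3.02 ± 0.56 on the log2 scale (estimate ± SE), or 8.11-fold, with an adjusted p of 0.0194 in edgeR's quasi-likelihood test over 11088 genes. In FLExDUX4 mice the controls were at 2.19, 3.74 and 2.70 CPM and the runners at 7.19, 20.5, 8.13 and 4.70 CPM. Here too the groups did not overlap, and the log2 difference was 1.78 ± 0.51, which was not called (adjusted p = 0.519). The interaction, the running difference in FLExDUX4 minus that in WT, was -1.24 ± 0.75 and was not called (adjusted p = 0.962). Averaged over genotype, Slc25a34 rose by 2.40 ± 0.38 (adjusted p = 0.00241).

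Slc25a20, the carnitine-acylcarnitine carrier that long-chain fatty acids need to reach the matrix, rose as well. It was at 28.8, 27.4 and 33.7 CPM in the WT controls and at 71.8, 56.3, 47.1 and 77.7 CPM in the WT runners. The groups did not overlap, and the difference was 1.08 ± 0.21 on the log2 scale, or 2.11-fold (adjusted p = 0.0194). In FLExDUX4 mice the controls were at 34, 42.6 and 39.9 CPM and the runners at 56.6, 72.1, 54.5 and 33.8 CPM. Of the 4 FLExDUX4 runners, 3 were above every control and runner 4 was below every control. The log2 difference was 0.47 ± 0.20 and was not called (adjusted p = 0.71). The interaction was -0.61 ± 0.29 (adjusted p = 0.954), and averaged over genotype Slc25a20 rose by 0.78 ± 0.15 (adjusted p = 0.00773).

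Slc25a34 and Slc25a20 were the 2 of 36 members called for running in WT and the 2 called for running averaged over genotype. Over all genes tested, 0.397% were called higher in WT runners (0.496% in either direction) and 0.550% were called higher in the average (0.857% in either direction). The WT calls were lost with limma-voom (adjusted p = 0.251 for Slc25a34 and 0.0568 for Slc25a20) and without WT control 1 (0.184 for both), WT control 2 (0.111 and 0.117) or WT running 4 (0.0715 and 0.0917), and Slc25a20 alone was lost without WT running 1 (0.0532). In the average over genotype, both calls held without any one mouse, with adjusted p of at most 0.0247 for Slc25a34 and 0.0404 for Slc25a20, and limma-voom kept Slc25a20 (0.0386) but not Slc25a34 (0.0849).

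Other measures also separated WT controls from WT runners. The 8 skeletal muscle fibre markers, most of them fast fibre genes, summed to 160962 to 164267 CPM in the WT controls and to 105305 to 141905 CPM in the WT runners. The summed slow fibre markers lay within 39.1 to 58.1 CPM in the WT controls and within 90.4 to 718 CPM in the WT runners, and 6 endothelial markers summed to 88.6 to 95.7 CPM and 151 to 230 CPM in the same groups. Markers of red blood cells summed to 441 to 955 CPM and 1135 to 1840 CPM. The sums of adipocyte markers (73.8 to 93.0 and 10.7 to 101 CPM) and macrophage markers (33.4 to 47.5 and 26.8 to 64.8 CPM) overlapped. Those of fibroblast markers overlapped too (774 to 1105 and 797 to 1047 CPM). For running in WT, no slow fibre, skeletal muscle fibre or red blood cell marker was called, and 1 of the 6 endothelial markers was called higher, against 0.397% of genes. In the average over genotype, 1 of the 10 slow fibre markers was called higher (Casq2, 1.57 ± 0.35, adjusted p = 0.0468). So was 1 of the 6 endothelial markers, against 0.55% of genes, and no skeletal muscle fibre or red blood cell marker was called. Transcripts of the mitochondrial genome took 20.9 to 26.4% of gene counts in WT controls and 27.0 to 36.6% in WT runners. FLExDUX4 running 4, the runner with the lowest Slc25a34 and Slc25a20 of its group, also had the group's lowest slow fibre (52.0 CPM), endothelial (93.5 CPM) and red blood cell (478 CPM) sums and its lowest mitochondrial share (26.6%). In the WT runners, runner 3 had the lowest Slc25a34 and Slc25a20 and the lowest mitochondrial share (27.0%), while the lowest slow fibre and endothelial sums were in runner 2 and the lowest red blood cell sum was in runner 1. All 10 slow fibre markers were detected in every group. The part of these measures in the results was not tested. With FLExDUX4 control 1 and FLExDUX4 running 4 both left out, a setting chosen after seeing the data, the same 2 members were called for running in WT and in the average.

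**Figure D2:**
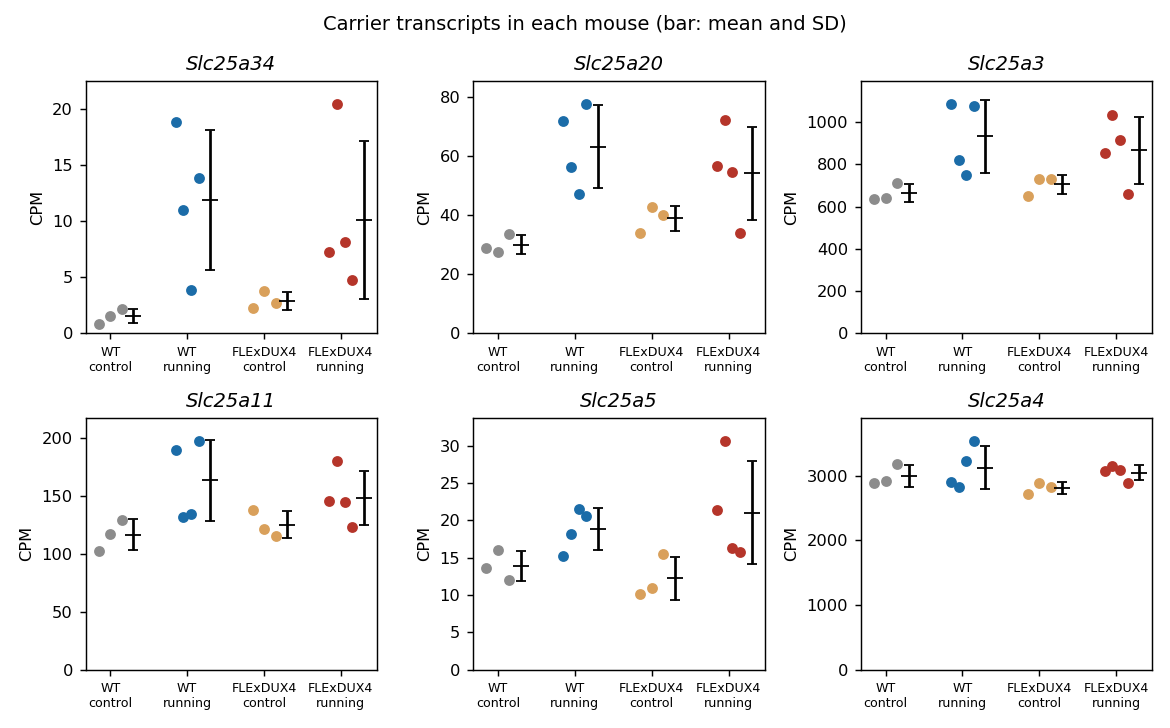
Level of 6 carriers in each mouse, in CPM, with each group's mean and SD beside its points. Slc25a34 was above all controls in the 4 runners of each genotype, Slc25a20 overlapped in FLExDUX4 mice through the runner at 33.8 CPM, and Slc25a4 kept within 2714 to 3545 CPM.

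The carriers of ATP and phosphate gave no call. Slc25a4 was at 2890, 2913 and 3191 CPM in WT controls, 2899, 2822, 3234 and 3545 CPM in WT runners, 2714, 2887 and 2833 CPM in FLExDUX4 controls and 3071, 3153, 3093 and 2883 CPM in FLExDUX4 runners. The groups overlapped for running in both genotypes. Its running difference was 0.06 ± 0.14 on the log2 scale in WT and 0.12 ± 0.14 in FLExDUX4, and averaged 0.09 ± 0.10 (adjusted p = 0.796). Slc25a3 had 663 ± 41.8 CPM in WT controls and 934 ± 173 CPM in WT runners, and these groups did not overlap. Its difference was 0.49 ± 0.15 (adjusted p = 0.132) in WT, 0.30 ± 0.15 in FLExDUX4 and 0.40 ± 0.11 in the average (adjusted p = 0.0656), none of them called. It was called for running in WT and in the average with spike-in library sizes, with no filter or without WT running 3, and in the average alone also by DESeq2 and without WT running 2 or FLExDUX4 running 4. Slc25a5, the ADP/ATP exchanger of dividing and non-muscle cells, was low, with 13.9 ± 1.99, 18.8 ± 2.80, 12.2 ± 2.92 and 21.0 ± 6.91 CPM in WT controls, WT runners, FLExDUX4 controls and FLExDUX4 runners. Its running difference in FLExDUX4 was 0.76 ± 0.27 (adjusted p = 0.600), with no overlap between the groups, and the average was 0.59 ± 0.19 (adjusted p = 0.121).

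As a share of the counts of both ADP/ATP exchangers, which does not depend on library scaling, Slc25a4 stood at 99.5% ± 0.0852 in WT controls, 99.4% ± 0.0625 in WT runners, 99.6% ± 0.0987 in FLExDUX4 controls and 99.3% ± 0.203 in FLExDUX4 runners. The average difference with running was -0.192 percentage points, with a two-sided exact permutation p of 0.0114 and an adjusted p of 0.171 over 15 such share tests. None of the 15 passed. The tests of genotype in controls could not pass, because their smallest possible p is 0.1. The other pairwise tests cannot go below 0.0286, so a single one at that p would not pass after adjustment over 15 tests. The calcium-regulated ATP-Mg/phosphate carriers Slc25a23 and Slc25a24 averaged 7.36 and 7.74 CPM, and gave no call in any contrast.

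Slc25a25, the third ATP-Mg/phosphate carrier, varied most between mice of the same group among members above 10 CPM. It was at 29.2, 3.46 and 4.81 CPM in WT controls, at 1.78, 45.8, 28.6 and 4.60 CPM in WT runners, at 6.86, 76.1 and 3.22 CPM in FLExDUX4 controls and at 0.389, 1.88, 3.61 and 3.71 CPM in FLExDUX4 runners. High values (28.6 CPM or more) thus came from WT control 1, WT runners 2 and 3 and FLExDUX4 control 2, and the other 10 mice were at 6.86 CPM or below. The within-group coefficient of variation was 148%, against 7.0% for Slc25a4 and 24.5% for Slc25a20. Running differences were 0.67 ± 1.30 in WT and -3.54 ± 1.47 in FLExDUX4 (adjusted p = 0.926 and 0.71). Without FLExDUX4 control 2, the mouse at 76.1 CPM, the difference in FLExDUX4 was -0.98.

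Of the carriers of the malate-aspartate shuttle, glutamate and aspartate, 4 were tested and none was called. All 4 had estimates above 0 in WT (median 0.79), against 51.3% of genes and a median of 0.01. In FLExDUX4, 2 were above 0 and 2 below (median 0.03). With spike-in library sizes Slc25a11 and Slc25a13 were called for running in WT, and Slc25a11 was called in the average with those sizes, with no filter, and without WT running 3 or FLExDUX4 running 4. Slc25a11 was at 116 ± 13.4 CPM in WT controls and 163 ± 34.9 CPM in WT runners without overlap, or 0.49 ± 0.16 on the log2 scale (adjusted p = 0.175). It was at 125 ± 11.7 and 148 ± 23.3 CPM in FLExDUX4 controls and runners, and the average over genotype was 0.37 ± 0.11 (adjusted p = 0.11). Slc25a12 had 180 ± 13.8, 199 ± 21.0, 186 ± 10.3 and 186 ± 22.3 CPM in WT controls, WT runners, FLExDUX4 controls and FLExDUX4 runners, with a difference of 0.15 ± 0.14 in WT (adjusted p = 0.804). The glutamate carrier Slc25a22 had 3.85 ± 1.66 CPM in WT controls and 8.25 ± 3.05 CPM in WT runners (1.09 ± 0.45, adjusted p = 0.355).

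Slc25a13, the liver-type aspartate-glutamate carrier, rested on few counts. The WT controls held 2, 0 and 0 counts, the WT runners 18, 17, 4 and 12, the FLExDUX4 controls 6, 3 and 16 and the FLExDUX4 runners 3, 10, 9 and 1. The 51 counts of the WT runners against 2 in the WT controls gave a ratio of 15.2 per unit of library size, with an exact 95% counting interval of 4.01 to 129. The fitted difference did not pass (adjusted p = 0.184), and its size depends on the prior count of the fit. The share of Slc25a12 among the counts of both was 99.9% ± 0.141, 98.9% ± 0.519, 99.2% ± 0.367 and 99.2% ± 0.785 in WT controls, WT runners, FLExDUX4 controls and FLExDUX4 runners, with exact permutation p of 0.0571 for running in WT (adjusted p = 0.323, smallest p possible 0.0286).

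**Figure D3:**
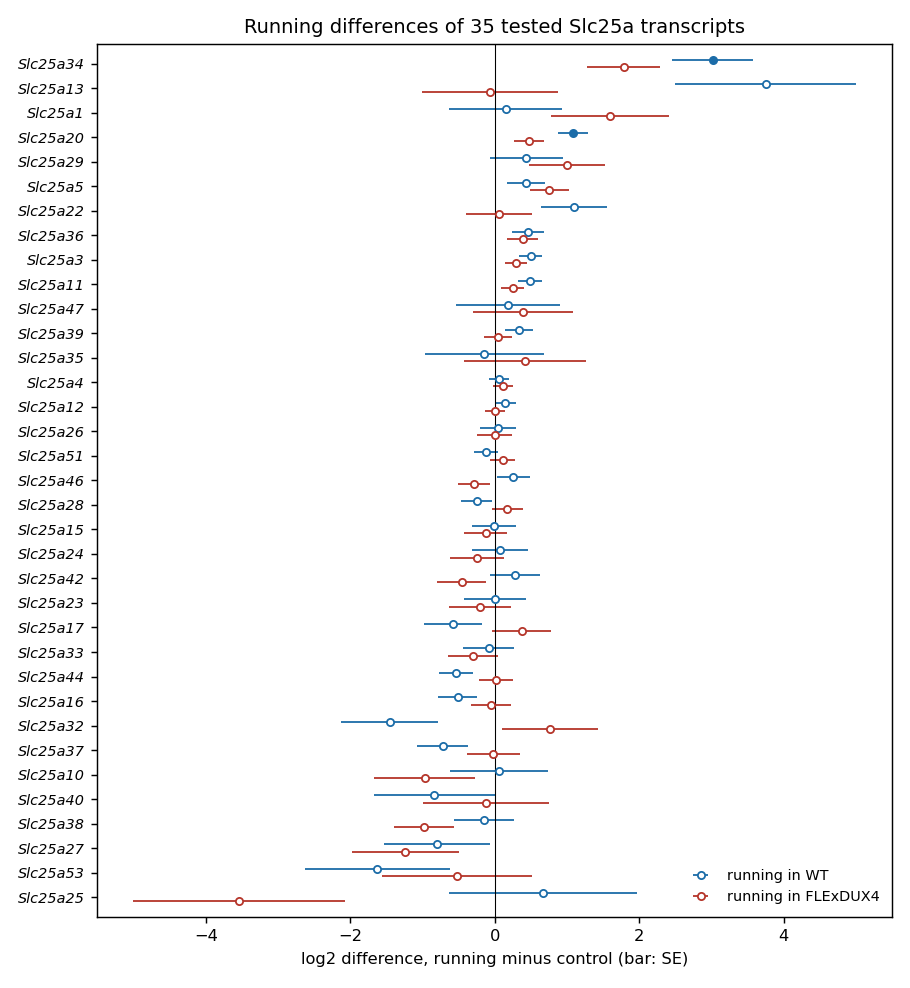
Log2 difference between runners and controls (bar: SE) of 35 tested members in each genotype, ordered by the mean of both estimates, with filled points for adjusted p under 0.05. Only Slc25a34 (3.02) and Slc25a20 (1.08) in WT are filled, and the widest bars belong to Slc25a25 and to members with few counts such as Slc25a13.

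Carriers of cofactors and nucleotides numbered 9, all tested, of which 4 were above 0 and 5 below 0 for running in WT and none was called. The highest was Slc25a51, with 50.2 ± 5.19, 46.3 ± 1.31, 45.7 ± 5.78 and 49.4 ± 8.79 CPM in WT controls, WT runners, FLExDUX4 controls and FLExDUX4 runners. The pyrimidine nucleotide carrier Slc25a36 had 21.4 ± 2.96 and 29.7 ± 6.82 CPM in WT controls and runners, and 21.7 ± 2.63 and 28.3 ± 5.07 CPM in FLExDUX4 controls and runners (average 0.42 ± 0.16, adjusted p = 0.202). Slc25a17, the peroxisomal carrier of coenzyme A and related cofactors, had 8.28 ± 2.90 CPM in WT controls and 5.12 ± 1.50 CPM in FLExDUX4 controls, which overlapped.

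Of the 5 carriers linked to iron, haem and glutathione, none was called. Slc25a39, a glutathione carrier, was the highest, with 36.8 ± 4.95, 46.3 ± 6.60, 42.6 ± 11.5 and 43.6 ± 6.75 CPM in WT controls, WT runners, FLExDUX4 controls and FLExDUX4 runners. Of the iron carriers, Slc25a28 (mitoferrin 2) averaged 25.9 CPM and Slc25a37 (mitoferrin 1) 11.6 CPM. Slc25a28 made up 62.2% ± 10.03, 70.0% ± 12.9, 71.4% ± 8.35 and 73.8% ± 5.84 of the counts of both in WT controls, WT runners, FLExDUX4 controls and FLExDUX4 runners, and no contrast of this share passed. The limits on p given for the share of the ADP/ATP exchangers hold here too. Slc25a38, the glycine carrier needed for haem synthesis, had 7.61 ± 2.10 CPM in FLExDUX4 controls and 3.91 ± 0.707 CPM in FLExDUX4 runners, with no overlap and a difference of -0.98 ± 0.41 (adjusted p = 0.71).

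Among the remaining carriers, the branched-chain amino acid carrier Slc25a44 had 32.5 ± 5.87 CPM in WT controls and 22.3 ± 8.84 CPM in WT runners (-0.54 ± 0.23, adjusted p = 0.379). In FLExDUX4 it had 27.7 ± 5.04 and 27.8 ± 4.15 CPM. Slc25a46, an outer membrane protein that acts on mitochondrial shape, had 23.1 ± 4.98, 27.5 ± 3.43, 27.1 ± 1.04 and 22.3 ± 6.46 CPM in WT controls, WT runners, FLExDUX4 controls and FLExDUX4 runners. The dicarboxylate carrier Slc25a10 averaged 2.54 CPM and the uncoupling protein-like carrier Slc25a27 averaged 2.53 CPM over the 14 mice. Neither was called in any contrast.

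**Figure D4:**
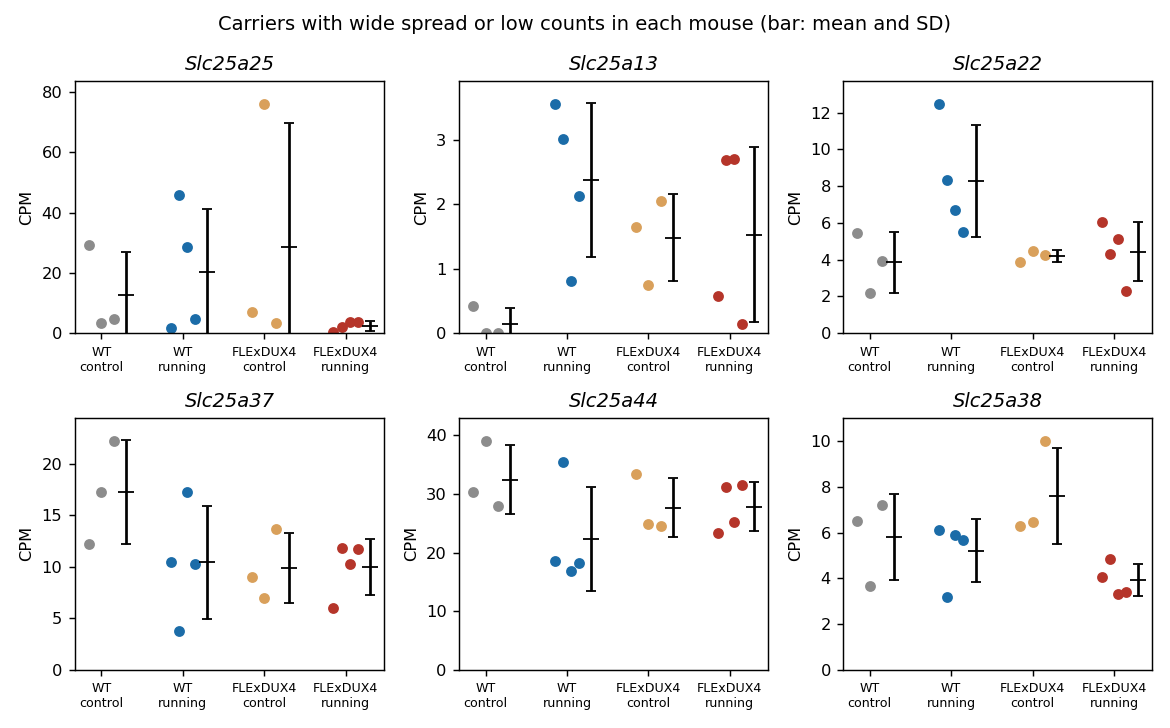
Level in each mouse, in CPM, of 6 carriers, most of them with wide spread or few counts, with each group's mean and SD. Slc25a44, with a within-group coefficient of variation of 23.4% and 1852 counts, is drawn with them. The axes start at 0, which cuts off the lower part of the SD bars of Slc25a25, whose 76.1 CPM in a FLExDUX4 control is the highest point.

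Across the 36 tested members, running in WT had 22 estimates above 0 and a median of 0.07 on the log2 scale, against 51.3% above 0 and a median of 0.01 over all 11088 genes. At an unadjusted p under 0.05 there were 9 members, 7 of them higher in runners (Slc25a34, Slc25a20, Slc25a3 and Slc25a11 had the smallest p), while 10.7% of all genes passed that level. Runners and controls did not overlap for 6 members that were higher in WT runners (Slc25a3, Slc25a11, Slc25a13, Slc25a20, Slc25a22 and Slc25a34) and for 1 that was lower (Slc25a53), against 5.74% and 4.56% of all genes. For running in FLExDUX4, no member and no gene was called (0% called), while the fit with no filter called 24 genes, among them Slc25a34, and the fit on these 2 groups alone called 6 genes and no member. At an unadjusted p under 0.05 there were 5 members against 6.66% of genes, and DESeq2 and limma-voom called no member. The members' median was 0.01, and the groups did not overlap for 3 that were higher (Slc25a5, Slc25a32 and Slc25a34) and 1 that was lower (Slc25a38), against 3.72% and 3.45% of genes. The 2 running comparisons share no mouse, and 20 of the 36 members (55.6%) had the same sign in both, beside 56.3% of all genes. In the average over genotype, 17 of the 36 estimates were above 0, against 51.5% of genes, and 7 members had an unadjusted p under 0.05, all higher in runners, against 12% of genes.

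Genotype gave no called member. Between FLExDUX4 and WT controls, edgeR, DESeq2 and limma-voom called none of the 36 (0% of genes were called in the edgeR fit with TMM factors), and 1 member, Slc25a13, had an unadjusted p under 0.05 (5.0% of genes did). FLExDUX4 controls were above WT controls without overlap for Slc25a13, Slc25a20 and Slc25a34 and below for Slc25a4 and Slc25a40, against 5.93% and 5.47% of genes. In this comparison 20 of the 36 estimates were above 0, against 50.3% of genes. The genotype difference in controls was 0.98 ± 0.63 for Slc25a34 and 0.38 ± 0.22 for Slc25a20. The mitoferrin Slc25a37 had 17.2 ± 5.03 CPM in WT controls and 9.89 ± 3.41 CPM in FLExDUX4 controls (-0.77 ± 0.39, adjusted p = 0.972). Summed slow fibre markers, at 39.1 to 58.1 CPM in WT controls and 187 to 501 CPM in FLExDUX4 controls, also did not overlap in this comparison. Neither did summed endothelial markers, at 88.6 to 95.7 CPM in WT controls and 118 to 129 CPM in FLExDUX4 controls. The other marker sums overlapped, and the part of these markers in the comparison was not tested.

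Between the runners of both genotypes none was called by edgeR (0% of genes), DESeq2 or limma-voom, and 2 members had an unadjusted p under 0.05 (3.16% of genes). Slc25a32, a carrier of folate and flavin cofactors, had 1.34 ± 0.804 CPM in WT runners and 3.71 ± 0.593 CPM in FLExDUX4 runners without overlap (1.44 ± 0.63, adjusted p = 0.999), the 1 such member against 1.36% of genes. No member was lower without overlap, against 1.15% of genes, and 12 of the 36 estimates were above 0, against 48.8% of genes. Slc25a22 had 8.25 ± 3.05 CPM in WT runners and 4.43 ± 1.6 CPM in FLExDUX4 runners (-0.91 ± 0.41, adjusted p = 0.999). Slc25a10 had 3.19 ± 1.67 and 1.41 ± 0.837 CPM in the same groups. No member was called in the average over running, where none had an unadjusted p under 0.05 (3.77% of genes), or for the interaction, where 3 did (Slc25a13, Slc25a20 and Slc25a32; 4.84% of genes). Of the 36 estimates, 12 were above 0 in the average over running and 15 for the interaction, against 49.5% and 49.4% of genes.

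Partner genes outside the family were read from 6 lists, and calls came from the shuttle enzymes. Got1, the cytosolic aspartate aminotransferase that works with Slc25a12 and Slc25a11, rose from 171 ± 15.3 CPM in WT controls to 371 ± 99.6 CPM in WT runners (log2 difference 1.12 ± 0.23, adjusted p = 0.0430) and rose in the average over genotype (0.85 ± 0.16, adjusted p = 0.0227). Gpd1 and Gpd2, the cytosolic and mitochondrial enzymes of the glycerol phosphate shuttle, both fell in the average, by 0.58 ± 0.12 (adjusted p = 0.0197) and by 0.47 ± 0.12 (adjusted p = 0.0375). Gpd1 also fell in WT, from 283 ± 45.7 to 159 ± 28.3 CPM (adjusted p = 0.0292). Of the 7 enzymes listed, 1 was called higher and 2 lower in the average, against 0.550% and 0.307% of all genes. In FLExDUX4, where no gene was called, the differences were 0.59 ± 0.23 for Got1, -0.33 ± 0.17 for Gpd1 and -0.45 ± 0.16 for Gpd2. Mdh1, the cytosolic malate dehydrogenase, had 167 ± 12.3 and 393 ± 133 CPM in WT controls and runners (adjusted p = 0.125).

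The other 5 lists gave no call in any of the 3 running contrasts. For the carnitine shuttle (9 of 11 tested), Acsl1, which activates long-chain fatty acids, had an average difference of 0.47 ± 0.12 (adjusted p = 0.0555), the plasma membrane carnitine transporter Slc22a5 one of 0.82 ± 0.45 (adjusted p = 0.486) and Cpt2, the matrix carnitine palmitoyltransferase, one of -0.02 ± 0.15. Cpt1b, the muscle form on the outer membrane, had 3 counts in all and was not tested, and a transcript annotated across it on the same strand (Gm44502) may take its reads. For ATP and phosphate (11 tested), 10 members were above 0 in the average with a median of 0.31, and the smallest p belonged to the ATP synthase subunits Atp5d (0.36 ± 0.11, adjusted p = 0.0878) and Atp5a1 (0.35 ± 0.11, adjusted p = 0.0937). Ckmt2, the mitochondrial creatine kinase of muscle, had 1.04 ± 0.31 (adjusted p = 0.165). For other mitochondrial transporters (18 of 20 tested), the pyruvate carrier subunits Mpc2 and Mpc1 had 0.37 ± 0.10 and 0.37 ± 0.13 (adjusted p = 0.0696 and 0.172). For carrier relatives under other symbols (4 of 5 tested), Ucp3, the muscle uncoupling protein, had -0.93 ± 0.46 in FLExDUX4 (adjusted p = 0.786) and -0.25 ± 0.32 in the average, and Mtch1, an outer membrane relative, had 0.37 ± 0.22 in WT (adjusted p = 0.604). For carrier import (10 of 11 tested), Timm10b, of the chaperones that escort carriers across the intermembrane space, had 0.45 ± 0.21 in WT (adjusted p = 0.440), and Tomm40, the pore of the outer membrane, had -0.54 ± 0.28 (adjusted p = 0.520).

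**Figure D5:**
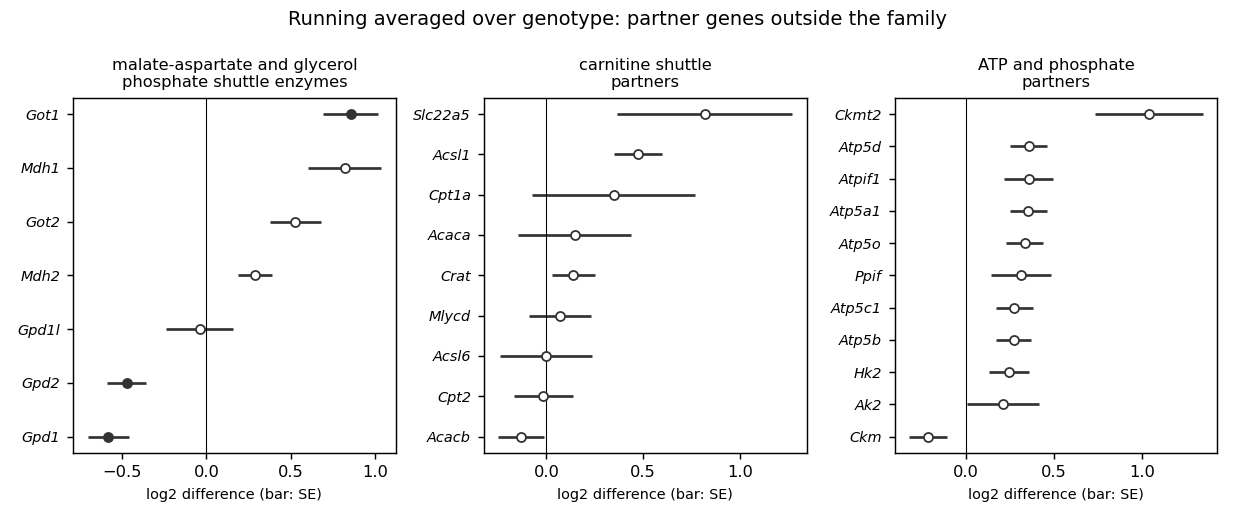
Log2 difference with running averaged over genotype (bar: SE) for the tested genes of 3 partner lists, with filled points for adjusted p under 0.05. Got1 (0.85) is filled above 0, and Gpd1 (-0.58) and Gpd2 (-0.47) are filled below 0.

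In the authors' deposited table of comparisons, 9 members had an adjusted p for WT controls against WT runners, and 3 of them were under 0.05, where 9.90% of the genes with an adjusted p were. By the authors' deposited table these were Slc25a20 (log2 fold change -0.89 of controls over runners, adjusted p 0.00171), Slc25a3 (-0.47, 0.0175) and Slc25a11 (-0.45, 0.0465). Slc25a34 had a log2 fold change of -1.20 there and no adjusted p in the authors' deposited table. For runners over controls, the fits made here gave Slc25a34 a larger difference, 3.02 with edgeR and 3.03 with DESeq2. The reason for this gap in size was not tested. In the authors' deposited table, Slc25a20 was also under 0.05 between FLExDUX4 runners and WT controls (0.70, adjusted p 0.0441), where 2.19% of genes were.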

How the data were processed

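Triceps RNA of 14 mice was profiled in QuantSeq 3′ libraries, per the labels' protocols. The values deposited are raw counts of reads for each gene and mouse, made by the authors with cutadapt 1.16, STAR 2.5.3a and featureCounts 1.6.2, per the submitters' processing notes, with the builds GRCm38 and GRCh38. The authors' deposited comparisons hold log2 fold changes and adjusted p-values, and DESeq2 is named in the submitters' processing notes. How strand and multiply aligned reads were treated is not given in the sources used here, so counts of overlapping genes (Slc25a35 with Rangrf, Slc25a26 with Lrig1, Slc25a23 with Gm17168) and of carriers with near-identical copies such as Slc25a5 are uncertain.

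From the counts, 99 spike-in rows were set aside and genes were kept by filterByExpr in edgeR 4.0.16 (R 4.3.3, minimum count 10), which left 11088. A single quasi-likelihood fit with TMM factors and 1 mean per group covered all 14 libraries, with robust spread estimates and a common biological coefficient of variation of 0.288. The SE of a log2 difference was taken as its absolute value divided by the square root of the test's F statistic. It is therefore approximate, most of all for differences near 0. A call is a p adjusted by Benjamini-Hochberg across those 11088 genes that lies under 0.05, in 7 contrasts: running in each genotype, genotype in controls and in runners, both averages and the interaction. The code was tested on simulated data. Shares of related carriers were compared by two-sided exact permutation tests, whose smallest p is 0.0286 for 4 against 3 mice and 0.100 for 3 against 3. WT and FLExDUX4 mice were littermates, but the labels do not say which mice share a litter, batch or day, and replicate numbers follow the accession order. No replicate pair looked like a duplicate (lowest chi-square per degree of freedom 5.46). Positions follow GENCODE M21 on GRCm38, which held all 47 members, and promoters come from RefSeq on GRCm38.p6. Counting intervals and floors cover counting error only. Alternatives were DESeq2 1.42.0, limma-voom (limma 3.58.1), RLE factors, library sizes from spike-ins, counts without mitochondrial genome rows and Gm42418, no filter, a filter of 1 CPM in 3 libraries, a fit on just the groups of a comparison, and leaving out every mouse once.

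The members, role groups and partner lists were chosen with earlier results of these data known. Members called in any contrast, and always Slc25a20, Slc25a34 and Slc25a4, are given in every mouse. The 5 members with the smallest p per pairwise comparison, the 5 highest, the highest of each role group and the share pairs are given by group, except for 1 tested member that is counted in the totals and not reported here. From each partner list up to 3 called genes, or else the 2 with the smallest p in a running contrast, are named, with Cpt1b, Cpt2, Ckmt2 and Ucp3 always. The per-mouse values of Slc25a25 and Slc25a13, and the values of Mdh1, were added after they were seen.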

Additional observations from a re-analysis of the deposited data

Results flagged for a closer look

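In groups of 4 mice, 6 of 72 sets of values held a mouse far from the other 3 by Dixon's criterion, and chance flags about 1 in 20. They were Slc25a12 at 168 CPM in WT running 3, Slc25a28 at 16.4 CPM in WT running 1, and Slc25a38 at 3.20 CPM in WT running 2, each below the others of its group. Slc25a44 in WT running 2 was high at 35.5 CPM. Slc25a15 in FLExDUX4 running 3 was low at 7.53 CPM, and Slc25a29 in FLExDUX4 running 2 was high at 11.3 CPM. None of these 6 genes was called in any contrast.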

How the results depend on the processing

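No paired analysis was possible because the labels give no replicate numbers that groups share. The 2 members called for running in WT became 7 with library sizes from spike-ins (adding Slc25a3, Slc25a11, Slc25a13, Slc25a36 and Slc25a39) and 0 with limma-voom, and ranged from 0 to 3 with each mouse left out in turn. The 2 called in the average over genotype became 6 with spike-ins (adding Slc25a3, Slc25a5, Slc25a11 and Slc25a36), 4 without a filter (adding Slc25a3 and Slc25a11) and 1 with limma-voom, and ranged from 2 to 4 with a mouse left out (4, with Slc25a3 and Slc25a11, without WT running 3 or FLExDUX4 running 4). For running in FLExDUX4, 0 became 1 (Slc25a34) without a filter. The causes were not tested. With spike-in sizes the median difference of all genes was 0.38 in WT and 0.22 in the average, against 0.01 in both with TMM. With them Slc25a4 changed sign for genotype averaged over running (0.0859), genotype in controls (0.22) and the interaction (-0.27). The median of all genes with these sizes was 0.15, 0.31 and -0.33 in the same contrasts. At an unadjusted p under 0.05 there were then 8 members for genotype in controls and 13 for the interaction, beside 1543 and 1158 of all genes. None of these members was called. With a mouse left out, differences that changed sign ranged from -0.00937 to 0.16 for Slc25a20 (genotype averaged), from -0.85 to 0.0561 for Slc25a34 (genotype in runners), and for Slc25a4 from -0.0801 to 0.0321 (genotype in runners) and -0.00684 to 0.11 (running in WT). For shares in percentage points, those ranges were -0.00929 to 0.0885 (Slc25a4, genotype in controls), -0.134 to 0.0127 (Slc25a4, genotype in runners), -0.311 to 0.209 (Slc25a12, running in FLExDUX4) and -1.65 to 6.69 (Slc25a28, running in FLExDUX4). Slc25a34 and Slc25a20 stayed above 0 for running in WT and in the average under every alternative. At 3 to 7 counts per CPM, carriers near 1 CPM rest on a few counts.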
